A study of Homo sapiens with 3 samples.

Results

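Osteopontin, encoded by SPP1, and 5 genes of galectin biology were followed in human cells that were being turned into melanocytes. The 6 genes were SPP1, LGALS1, LGALS3, LGALS3BP, LGALS8 and CD44, each a single row among the 36601 genes of the deposited counts. They were chosen by symbol, and the set was selected on the changes of SPP1 and LGALS3 between the days, so that differences between days are given below as descriptions, with no test. Comparisons between cell classes and between melanocyte-like cells of high and low pigment gene expression were not the ground of that choice and were tested. The genes were still chosen with earlier results of these data known. These tests are therefore not independent of the choice.

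The cells were sampled on day 23, day 32 and day 44 of induction, with 1 droplet RNA library per day, called D23, D32 and D44. Embryoid bodies from pluripotent stem cells had been kept in a medium with Wnt3a-conditioned medium, stem cell factor (SCF), endothelin-3, basic fibroblast growth factor, cholera toxin, dexamethasone and the phorbol ester TPA, then plated on fibronectin and, from the first passage on, grown with a little serum and without TPA. The labels do not settle the starting line, since the titles speak of induced pluripotent stem cells while the line given elsewhere is H9, which was derived from a human embryo. No library had an untreated or genetically altered counterpart, and cells were frozen after dissociation before the libraries were made. By the study's methods, D32 and D44 came from 1 induction and were sequenced together, and D23 came from another and was sequenced apart, so that day, induction and batch cannot be told apart between D23 and the later libraries.

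Osteopontin is a secreted, heavily phosphorylated glycoprotein of the SIBLING family that binds integrins and CD44 and is known from bone, from macrophages and from melanoma. Galectins are lectins without a signal sequence that bind galactose-containing glycans. Galectin-1 (LGALS1) forms dimers, galectin-3 (LGALS3) carries a collagen-like tail and can form larger assemblies on glycoproteins, and galectin-8 (LGALS8) joins 2 carbohydrate-binding domains in 1 chain and marks damaged endosomes. LGALS3BP encodes a secreted glycoprotein that galectin-3 binds, and CD44 is the main cell surface receptor for hyaluronan.

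On GRCh38 the 6 genes lie apart on 6 chromosomes. The GENCODE gene models are SPP1 at chr4:87975667-87983532, LGALS1 at chr22:37675636-37679802, LGALS3 at chr14:55124110-55145423, LGALS8 at chr1:236518000-236552981 and CD44 at chr11:35138882-35232402, all on the plus strand, and LGALS3BP at chr17:78971238-78979947 on the minus strand. The 250 bases before the RefSeq start sites (GRCh38.p14, plus strand) of SPP1 at chr4:87975464-87975713 and of LGALS3 at chr14:55129002-55129251 are shown because these genes had the largest differences between days of the set. Capitals mark the single motif match found.
SPP1: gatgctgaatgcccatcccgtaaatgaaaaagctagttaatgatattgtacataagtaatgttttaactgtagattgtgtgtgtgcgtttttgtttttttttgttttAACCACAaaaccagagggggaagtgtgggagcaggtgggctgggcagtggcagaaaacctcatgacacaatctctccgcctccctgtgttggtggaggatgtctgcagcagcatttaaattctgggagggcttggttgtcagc
LGALS3: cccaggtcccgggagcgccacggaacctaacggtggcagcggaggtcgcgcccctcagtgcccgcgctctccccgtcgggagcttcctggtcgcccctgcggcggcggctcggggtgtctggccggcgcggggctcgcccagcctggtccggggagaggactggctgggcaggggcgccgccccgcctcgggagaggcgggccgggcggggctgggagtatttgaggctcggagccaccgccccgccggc
Both strands were searched for CATGTG and CACGTG, the E-boxes read by MITF and related factors, TGANTCA, read by AP-1, and AACCACA, the core read by RUNX factors. A stretch was allowed to count for more than 1 of these words where they overlap. AACCACA was found once, in the SPP1 window with its first base 143 bases before the start site, and 3.65% of 34788 promoter windows of this length hold it. The LGALS3 window held none of the 4 words, which occur in 9.44% (CATGTG), 6.31% (CACGTG) and 6.59% (TGANTCA) of windows for the other 3. The base composition differed, with 44.8% G and C in the SPP1 window and 78.8% in the LGALS3 window, against a median of 58.0% over all windows. The windows of LGALS3BP, LGALS8 and CD44 held no match either. LGALS1 had no entry among the promoter windows and was not searched.

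The cell filter of the study left 3796 cells in D23, 6023 in D32 and 5811 in D44, with median depths of 12574, 36375 and 42940 unique molecular identifiers (UMIs), each standing for 1 captured transcript molecule. A cell was gated as melanocyte-like, mesenchymal-like or neural-like where the score of that class's marker genes led the next score clearly, and was otherwise left ungated. Melanocyte-like cells numbered 2065 (54.4% of kept cells) in D23, 5520 (91.65%) in D32 and 5714 (98.33%) in D44. There were 368, 292 and 15 mesenchymal-like cells and 783, 81 and 4 neural-like cells, and the class of 14733 of 14842 gated cells was the same by clustering. Levels are given as CPM, the UMIs of a gene in a group of cells scaled to the same total for every group. The 10 melanocyte markers summed to 5020, 11105 and 13013 CPM in melanocyte-like cells. The mesenchymal-like class differed in its genes between days: the 6 epithelial markers summed to 139, 4685 and 1157 CPM in it, with KRT8 and KRT19 among its leading genes in D32. By clustering 0 of its 15 cells in D44 kept this class, since every cluster of that library was named melanocyte-like. In these 15 cells the mesenchymal markers summed to 2800 CPM and the melanocyte markers to 217 CPM. Of other osteopontin sources, the 8 macrophage markers summed to 0.252, 0.211 and 0.309 CPM in melanocyte-like cells over the 3 days, and the 6 osteoblast markers to 7.09, 6.22 and 6.69 CPM, with SP7, IBSP and DMP1 at 0 and RUNX2, ALPL and BGLAP detected. The osteoblast markers summed to 36.4 CPM in mesenchymal-like and 49.2 CPM in neural-like cells of D23, and their part in the SPP1 levels was not tested. The libraries shared 9 to 28 cell barcodes pairwise, out of 5585 to 8927 each. The intervals of levels are exact 95% Poisson intervals and those of shares exact 95% binomial ones, and both cover counting error only. In such sums, more cells expressing a gene and more RNA per cell cannot be told apart by the level alone.

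SPP1, the osteopontin gene, had its largest step between D32 and D44. In melanocyte-like cells its level was 18.7 CPM (17.2 to 20.4) in D23, 42.3 CPM (41.4 to 43.2) in D32 and 189 CPM (188 to 191) in D44, from 520, 9414 and 49642 UMIs. D44 had 4.47 times the level of D32 (4.38 to 4.57), and 99.92% of the genes of at least 10 CPM had a lower or equal fold. A high rank follows from the choice of SPP1 by its change over days and is no support for it. D32 had 2.26 times that of D23 (2.07 to 2.47), across the change of induction. At equal depth, with cells thinned to 5000 UMIs, SPP1 was seen in 6.96%, 15.3% and 45.1% of melanocyte-like cells (D23, D32, D44). As deposited the shares were 13.7%, 48.5% and 86.8%. Cells under 5000 UMIs were left out of all thinned counts. In D23 these were 26 melanocyte-like, 19 mesenchymal-like and 107 of 783 neural-like cells, and the gated classes of D32 and D44 lost none. The whole libraries showed less of a step between the earlier days, with 39.4 CPM in D23, 43.9 CPM in D32 and 188 CPM in D44.

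LGALS3 took its step earlier. Its level in melanocyte-like cells was 335 CPM (328 to 341) in D23, 3246 CPM (3239 to 3254) in D32 and 4368 CPM (4360 to 4376) in D44. D32 had 9.70 times the level of D23 (9.51 to 9.91), with 99.89% of genes at or below that fold, and D44 had 1.35 times that of D32 (1.34 to 1.35), with 95.61% at or below. LGALS3 too was chosen by its change over days, so these ranks only describe it. It was seen in 54.5% of melanocyte-like cells at equal depth in D23, in 98.6% in D32 and in 99.9% in D44. The shares in mesenchymal-like cells were 32.4% in D23, 62.0% in D32 and 15 of 15 cells in D44, and in neural-like cells 50.4% in D23 and 67.9% in D32, so expression is not read from the share alone.

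The other 4 genes moved less. LGALS3BP had 25.7, 73.2 and 91.1 CPM in melanocyte-like cells of D23, D32 and D44, which put D32 at 2.85 times D23 (2.64 to 3.08). LGALS1 had 3783, 2745 and 2750 CPM, with D32 at 0.725 times D23 (0.721 to 0.730) and D44 level with D32 at 1.00 times. CD44 had 278, 315 and 264 CPM and LGALS8 had 16.2, 18.0 and 22.3 CPM, which put D44 at 0.949 and 1.37 times D23. Among genes of at least 10 CPM in either library, 0.643% were at least 2-fold higher and 0.812% at least 2-fold lower in D44 than in D32, and 1 of the 6 genes, SPP1, was in the first group. For D32 against D23 these shares were 3.79% and 7.44%, and SPP1, LGALS3 and LGALS3BP were at least 2-fold higher. The set was chosen on the changes of SPP1 and LGALS3, so its counts are not weighed against these shares. The ratio of D32 to D23 for SPP1 was under 2 with cells named by clusters (1.55) and with a lead of 0.1 in the gate (1.72). None of the 6 was at least 2-fold lower at either step.

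**Figure D1:**
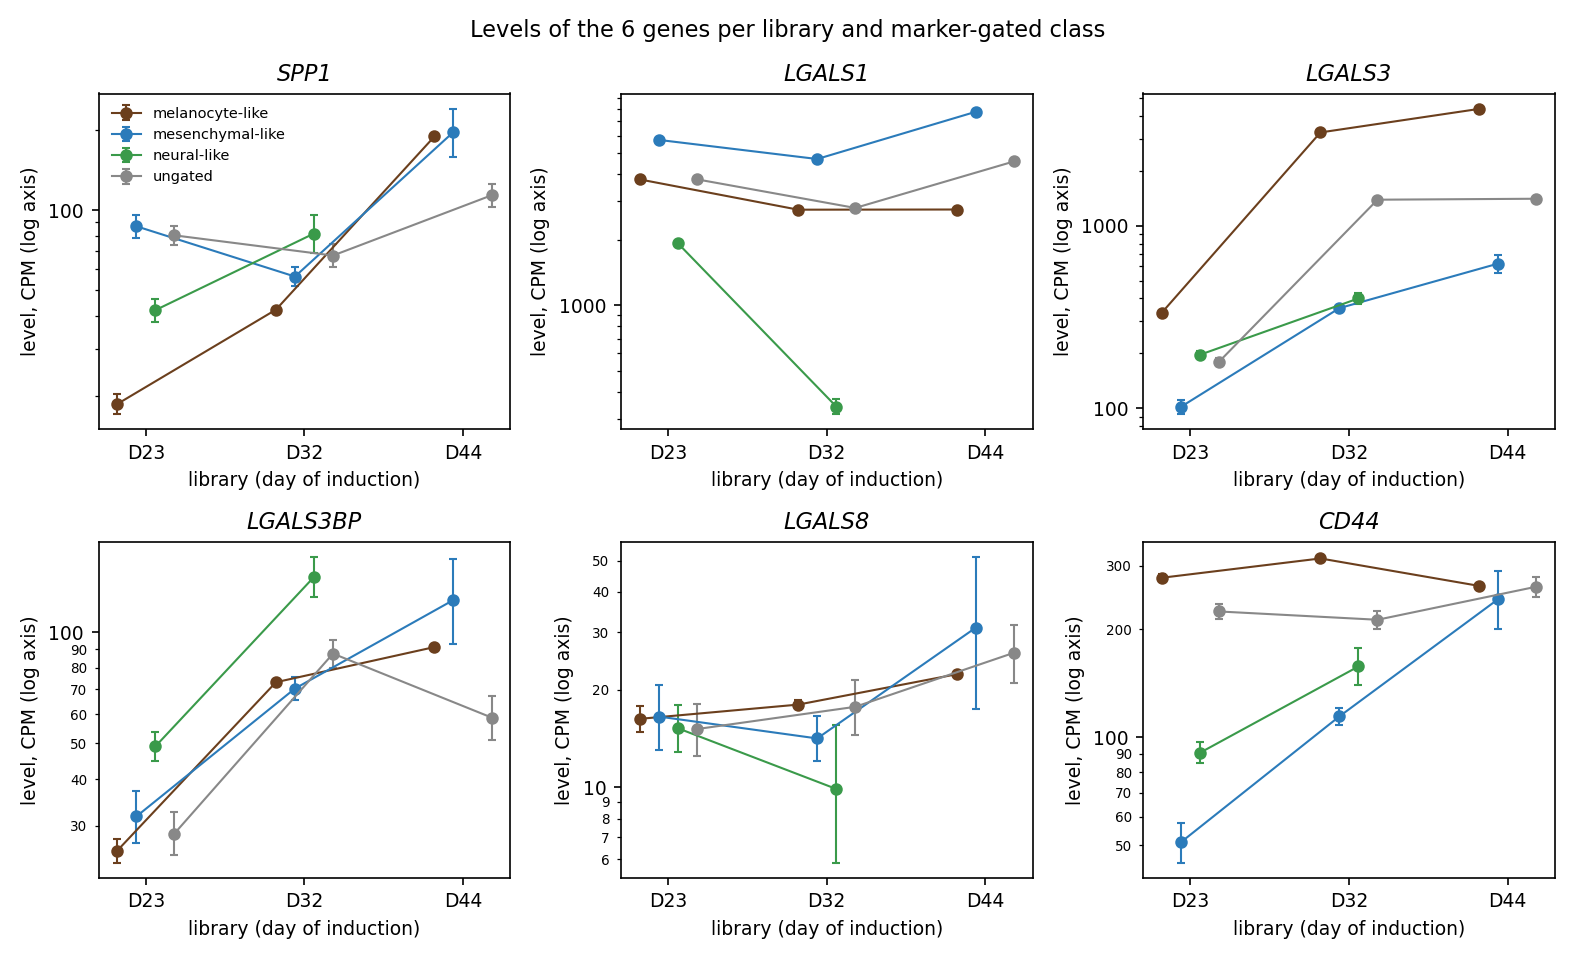
Level of each gene in CPM (log axis) in the D23, D32 and D44 libraries, with 1 line per marker-gated class and exact 95% Poisson intervals as bars. In melanocyte-like cells SPP1 stands at 18.7, 42.3 and 189 CPM and LGALS3 at 335, 3246 and 4368 CPM, while LGALS1 and CD44 stay within a narrow band.

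SPP1 was not particular to melanocyte-like cells at the start. In D23 it had 18.7 CPM in melanocyte-like cells, against 87.0 CPM (78.8 to 95.8) in mesenchymal-like and 42.1 CPM (38.1 to 46.5) in neural-like cells. It stood at 80.4 CPM (74.3 to 86.9) in the 580 ungated cells of D23, which belong to no class. In D32 it had 42.3 CPM in melanocyte-like cells, against 56.3 CPM in mesenchymal-like and 81.7 CPM in neural-like cells, and in D44 189 CPM in melanocyte-like against 197 CPM in mesenchymal-like cells. The later mesenchymal-like values rested on single cells. In D32 1 such cell held 479 of the 622 SPP1 UMIs of its class. This cell was among those called doublets by a preset share of the highest scores, with 194 UMIs of melanocyte markers beside 150 of mesenchymal markers. In D44 1 cell held 82 of 95. That cell was not called a doublet, with 163 UMIs of mesenchymal markers beside 7 of melanocyte markers. Among neural-like cells of D32 the highest cell held 51 of 149 SPP1 UMIs. Without the highest cell of each sum, the mesenchymal-like level was 82.3 CPM in D23, 13.0 CPM in D32 and 29.0 CPM in D44, the neural-like level of D32 was 54.7 CPM, and the melanocyte-like level was 18.0, 42.1 and 189 CPM. Melanocyte-like cells then stood under mesenchymal-like cells in D23 and above them in D32 and D44, and stayed under the neural-like cells of D32.

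The shares of cells with a UMI are not moved by single cells. At equal depth SPP1 was seen in 6.96% of melanocyte-like cells of D23, against 20.6% of mesenchymal-like and 12.4% of neural-like cells. In D32 the share was 15.3% in melanocyte-like cells, against 3.08% (1.42 to 5.77) in mesenchymal-like and 6.17% (2.03 to 13.8) in neural-like cells, and in D44 it was 45.1% in melanocyte-like cells, against 1 of 15 mesenchymal-like cells. The clusters of D23 that were named neural-like, which also took in cells the gate left ungated, were uneven. A cluster of 601 cells had 68.8 CPM of SPP1. A cluster of 341 cells, led by genes such as DCX, had 2.48 CPM (0.909 to 5.39) from 6 UMIs. As deposited and not at equal depth, SPP1 was seen in 37.9% and 1.76% of their cells, at median depths of 14943 and 5909 UMIs. Free RNA in the droplets gives UMIs in cells that do not make a transcript. As a yardstick, the pigment gene PMEL was seen at equal depth in 20.9%, 24.0% and 26.7% of mesenchymal-like cells (D23, D32, D44), and the 10 melanocyte markers had medians of 5.61%, 4.44% and 2.02% of their melanocyte-like level there. The SPP1 shares of mesenchymal-like cells were at or under the PMEL shares. However, PMEL was the far more abundant transcript, with 1219 CPM in the kept cells of D23 against 39.4 CPM for SPP1. Its shares are therefore no like measure for SPP1. The part of free RNA in the SPP1 shares was not tested, and expression is not read from these shares alone. In D23 the SPP1 level of mesenchymal-like cells was 465% of that of melanocyte-like cells, where no melanocyte marker passed 7.85%. For the neural-like cells of D32 the share and the level gave opposite orders, and no order is read there.

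**Figure D2:**
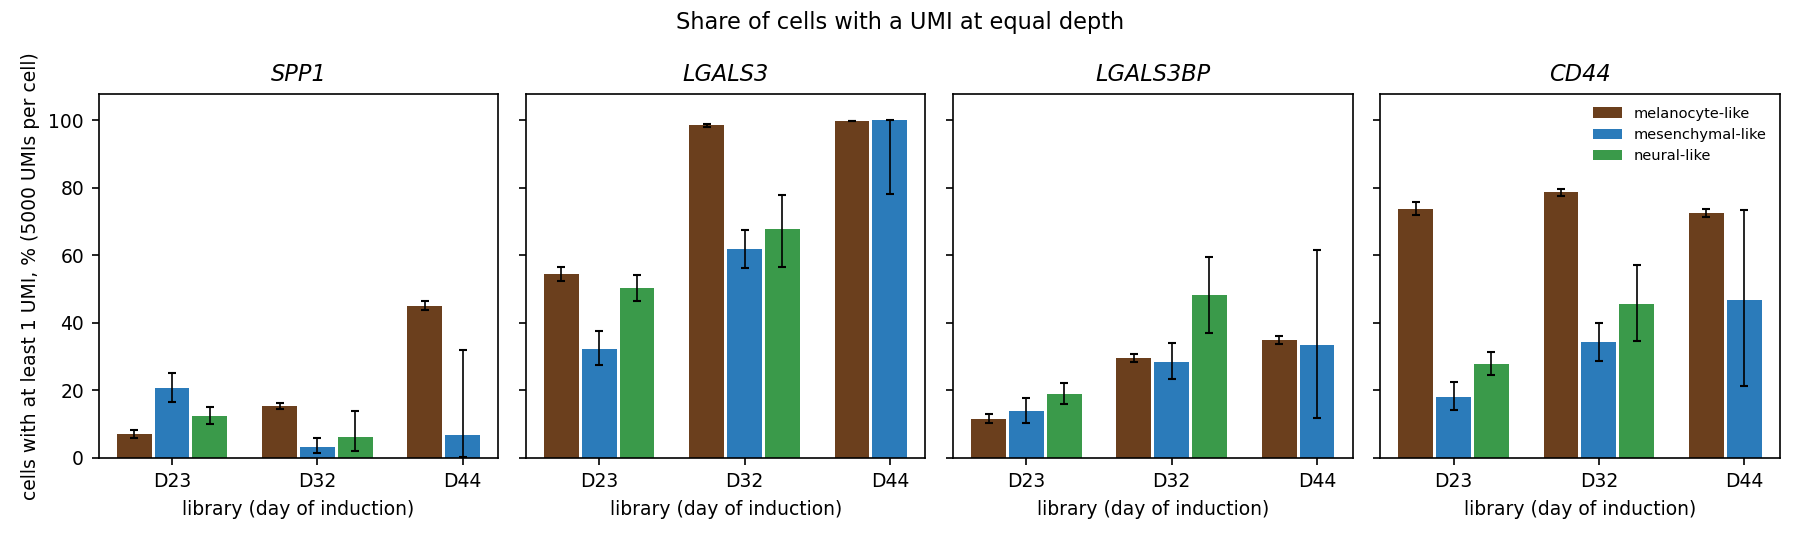
Share of cells with at least 1 UMI of a gene, in % on an axis from 0, by library and marker-gated class, with exact 95% binomial intervals as bars. Cells were thinned to 5000 UMIs, and shallower cells were left out. The SPP1 bar of melanocyte-like cells is 6.96% in D23, below the bars of the other classes, and 45.1% in D44.

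Across the 3 libraries the class difference of SPP1 was not called. The edgeR quasi-likelihood test on sums of UMIs over the cells of a class in a library, blocked on the library, gave a log2 fold change of -0.83 ± 0.43 (SE) for melanocyte-like against mesenchymal-like cells, with a Benjamini-Hochberg adjusted p of 0.228, and -0.58 ± 0.50 against neural-like cells, with an adjusted p of 0.447. Without the highest SPP1 cell of each sum, an alternative added after seeing the data, the sign turned, at 0.53 (edgeR adjusted p = 0.746) and 0.10 (edgeR adjusted p = 0.960). Without D32 the log2 fold change against mesenchymal-like cells was -1.01, from a fit left with too few sums for its p-value to be read. The main fit had 8 sums, since the 4 neural-like cells of D44 were too few, and the replicates are 3 days of a pair of inductions.

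LGALS3 was the gene of the set most clearly higher in melanocyte-like cells. It had 335, 3246 and 4368 CPM in melanocyte-like cells of D23, D32 and D44, compared with 102, 354 and 621 CPM in mesenchymal-like cells, which is 3.28, 9.17 and 7.04 times as much. In neural-like cells it had 197 CPM in D23 and 400 CPM in D32. Melanocyte-like cells had the higher level in every library that allowed the comparison. The log2 fold change was 2.77 ± 0.43 against mesenchymal-like cells (edgeR adjusted p = 0.00375) and 2.18 ± 0.52 against neural-like cells (edgeR adjusted p = 0.0203). Its level in mesenchymal-like cells was 30.5%, 10.9% and 14.2% of that in melanocyte-like cells of D23, D32 and D44, above the highest of the 10 melanocyte markers, which reached 7.85%, 7.22% and 4.35%. With 10% of a whole library's profile taken off as free RNA, the call against mesenchymal-like cells held and that against neural-like cells was lost, at an edgeR adjusted p of 0.0589, as it was without D44, at 0.0551.

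CD44, the receptor that binds osteopontin and hyaluronan, was also higher in melanocyte-like cells. Over D23, D32 and D44 it had 278, 315 and 264 CPM there, against 51.0, 114 and 242 CPM in mesenchymal-like cells and 90.5 and 157 CPM in neural-like cells of D23 and D32. The log2 fold change was 1.45 ± 0.33 against mesenchymal-like (edgeR adjusted p = 0.0188) and 1.26 ± 0.37 against neural-like cells (edgeR adjusted p = 0.0448), and the second of these calls held in 7 of 13 settings. In D44 the ratio to the 15 mesenchymal-like cells was 1.09 (0.909 to 1.32), so the distance was within counting error there.

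LGALS1 lay between the other classes. Its 3783, 2745 and 2750 CPM in melanocyte-like cells of D23, D32 and D44 stood against 5748, 4694 and 7739 CPM in mesenchymal-like cells and 1928 and 342 CPM in neural-like cells of D23 and D32. It was higher than in neural-like cells, with a log2 fold change of 1.89 ± 0.54 (edgeR adjusted p = 0.0394). This call was lost without D44 (edgeR adjusted p = 0.0710) and did not hold without D32, at 0.88. Against mesenchymal-like cells LGALS1 was lower in each library, with a log2 fold change of -0.87 ± 0.42 that did not pass (edgeR adjusted p = 0.201). Without D23 it was -1.08, from a fit left with too few sums for its p-value to be read. LGALS3BP was lower than in neural-like cells, with 25.7 and 73.2 CPM in melanocyte-like against 49.1 and 141 CPM in neural-like cells of D23 and D32. Its log2 fold change was -0.78 ± 0.18 (edgeR adjusted p = 0.0184), a call lost without D32. Its level of 31.7, 70.4 and 122 CPM in mesenchymal-like cells differed from that of melanocyte-like cells by less than its error (log2 fold change -0.13 ± 0.16, edgeR adjusted p = 0.646). LGALS8 had 14.1 to 31.0 CPM in mesenchymal-like and 9.87 to 15.2 CPM in neural-like cells and passed neither test, with log2 fold changes of 0.09 ± 0.24 and 0.51 ± 0.29 (edgeR adjusted p = 0.859 and 0.238).

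Of all 15199 genes tested against mesenchymal-like cells, 9.74% were called higher and 10.8% lower in melanocyte-like cells, and 2 of the 6 genes were called, both higher. Against neural-like cells 10.1% were called higher and 12.9% lower, and of the 6 genes 3 were called higher (LGALS1, LGALS3 and CD44) and 1 lower (LGALS3BP). In simulated counts with known changes, a log2 fold change of 1 was recovered for 24% of genes against mesenchymal-like and 10% against neural-like cells, so a missed call says little about differences of that size.

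**Figure D3:**
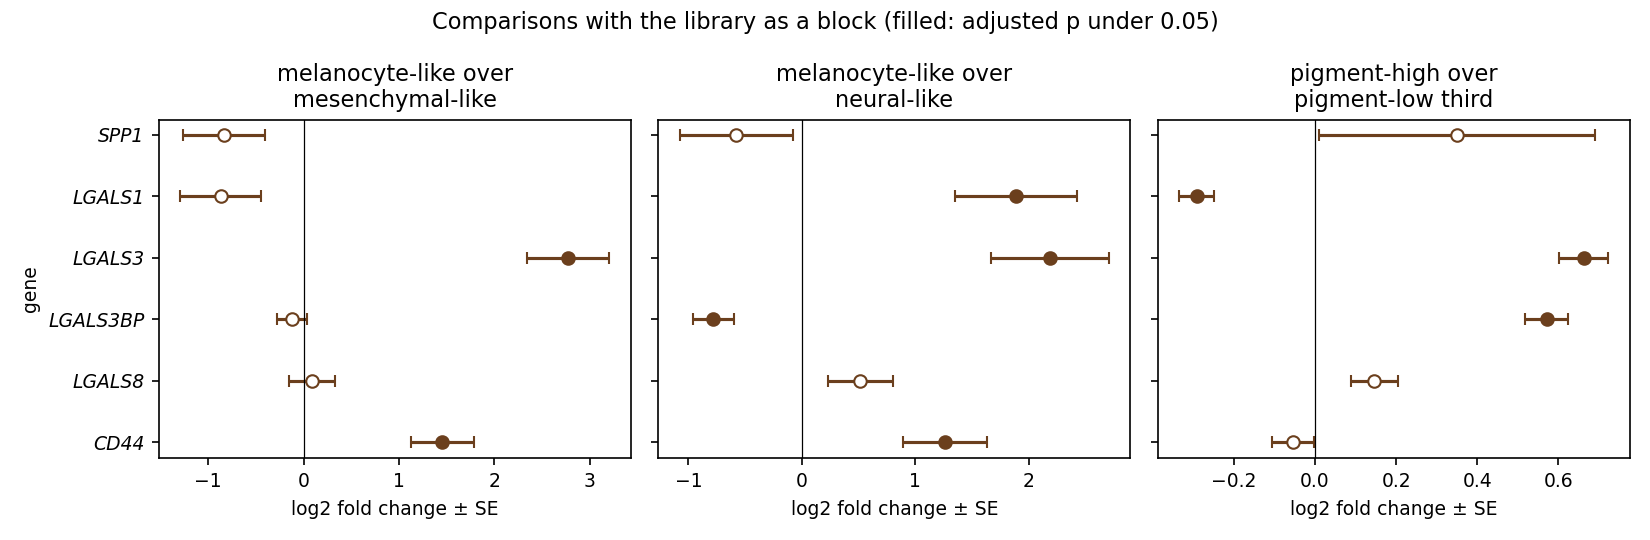
Log2 fold change with its SE for the 6 genes in 3 comparisons: melanocyte-like against mesenchymal-like cells, melanocyte-like against neural-like cells, and the high against the low pigment tertile of melanocyte-like cells. Filled points have an edgeR adjusted p under 0.05; LGALS3 is filled and positive in each, at 2.77, 2.18 and 0.66, and SPP1 is filled in none.

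Melanocyte-like cells were then ordered within each library by the score of the 10 melanocyte markers, none of which is among the 6 genes, and cut into 3 equal ranges (tertiles). These are ranges of a score and not cell types. In D44 SPP1 went with pigment gene expression, with 276 CPM in the high against 105 CPM in the low tertile, a ratio of 2.64 (2.58 to 2.70). In D32 it had 37.0 CPM in the high against 45.9 CPM in the low tertile, a ratio of 0.805 (0.765 to 0.847), and in D23 8.19 CPM against 29.8 CPM, a ratio of 0.275 (0.210 to 0.357). Thus the high tertile had less SPP1 than the low one in D23 and D32 and more in D44, and with 1 library per day this difference between days was not tested. In D23 256 of 2065 melanocyte-like cells lay near the cut of the gate, against 46 of 5520 in D32 and 35 of 5714 in D44. The ungated cells of D23 had 80.4 CPM of SPP1. Tertiles were made with the main gate only, and the part of cells near its cut in these ratios was not tested. Over the 3 libraries together no change was called, at a log2 fold change of 0.35 ± 0.34 (edgeR adjusted p = 0.511). Without D44, the fold change was -0.57 and passed (edgeR adjusted p = 0.0228), and DESeq2 on all 3 libraries gave -0.24.

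The ratio of the later days was largest in the tertile with most pigment gene expression. D44 over D32 was 2.28 in the low, 4.22 in the middle and 7.47 in the high tertile. When the cells were cut into 5 equal ranges on thinned counts, the SPP1 level ran from the lowest to the highest range as 98.2, 133, 176, 214 and 305 CPM in D44, as 53.4, 41.3, 40.8, 37.7 and 36.1 CPM in D32 and as 31.9, 23.5, 10.8, 13.2 and 6.88 CPM in D23. SPP1 thus climbed over the whole range in D44, and in D32 and D23 the lowest range had the most. Among the clusters of D44, made without the 6 genes and the markers, SPP1 had 246 CPM in the cluster of 2973 cells with the highest melanocyte marker score, 159 CPM in the cluster of 669 cells led by mitosis genes, 144 CPM in the cluster of 1673 cells led by S-phase genes and 97.8 CPM in the cluster of 496 cells led by NPY and VGF, which had the lowest score.

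**Figure D4:**
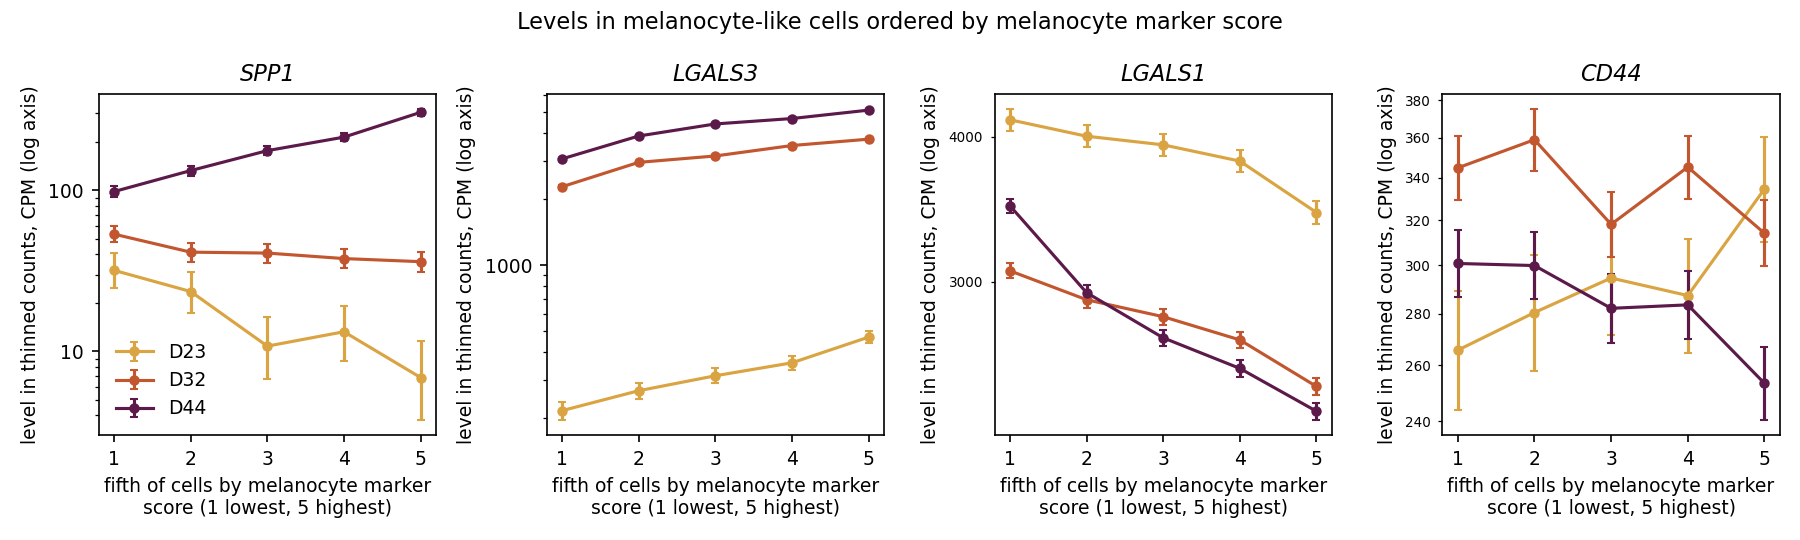
Level of SPP1, LGALS3, LGALS1 and CD44 in CPM (log axis), in counts thinned to 5000 UMIs per cell, across 5 equal ranges of melanocyte-like cells from the lowest to the highest melanocyte marker score, with 1 line per library and exact 95% Poisson intervals. SPP1 climbs to 305 CPM in D44 and descends to 36.1 CPM in D32 and 6.88 CPM in D23, while LGALS3 climbs in every library.

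LGALS3 had more transcript in the high tertile of every library, with 455 against 246 CPM in D23, 3827 against 2602 CPM in D32 and 5062 against 3466 CPM in D44, high against low. The log2 fold change was 0.66 ± 0.06 (edgeR adjusted p = 4.466e-05). LGALS3BP rose likewise, with 33.3 against 21.7, 86.6 against 58.1 and 106 against 74.3 CPM and a log2 fold change of 0.57 ± 0.05 (edgeR adjusted p = 4.556e-05). LGALS1 fell, with 3514 against 3992, 2495 against 2984 and 2373 against 3226 CPM and a log2 fold change of -0.29 ± 0.04 (edgeR adjusted p = 0.000635). These 3 genes showed their direction in 3 of 3 libraries.

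CD44 did not pass, at -0.05 ± 0.05 (edgeR adjusted p = 0.501). It had 292 against 257 CPM in D23, 302 against 328 CPM in D32 and 244 against 281 CPM in D44, high against low, and so the other sign in D23. Without D23 it was lower in the high tertile, at -0.14 (edgeR adjusted p = 0.0224). LGALS8 had a log2 fold change of 0.15 ± 0.06 (edgeR adjusted p = 0.0905). Among 17028 genes tested, 11.1% were called higher and 13.1% lower in the high tertile, and of the 6 genes 2 were called higher and 1 lower. Mitosis genes moved with the tertiles: all 8 mitosis genes of the list, such as MKI67 and TOP2A, were called lower in the high tertile, with a median log2 fold change of -0.80, and 5 of 8 lysosome genes were higher and none lower. Their part in the tertile results was not tested.

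Among single melanocyte-like cells the correlations were weak, and they are given as a description over cells that share a library and its free RNA. SPP1 and LGALS3 had a Spearman correlation of -0.07 over melanocyte-like cells of D23, 0.04 in D32 and 0.22 in D44, in counts thinned to 5000 UMIs. SPP1 correlated with the melanocyte marker score at -0.13, -0.04 and 0.25 and with the mitosis score at 0.02, 0.03 and -0.13. LGALS3 correlated with the melanocyte marker score at 0.18, 0.28 and 0.36 and with the mitosis score at -0.14, -0.06 and -0.16. It also correlated with the cell's depth before thinning, at 0.03, 0.17 and 0.22. LGALS1 ran against the marker score, at -0.16, -0.18 and -0.29, and CD44 against the mitosis score, at -0.13, -0.18 and -0.12.

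**Figure D5:**
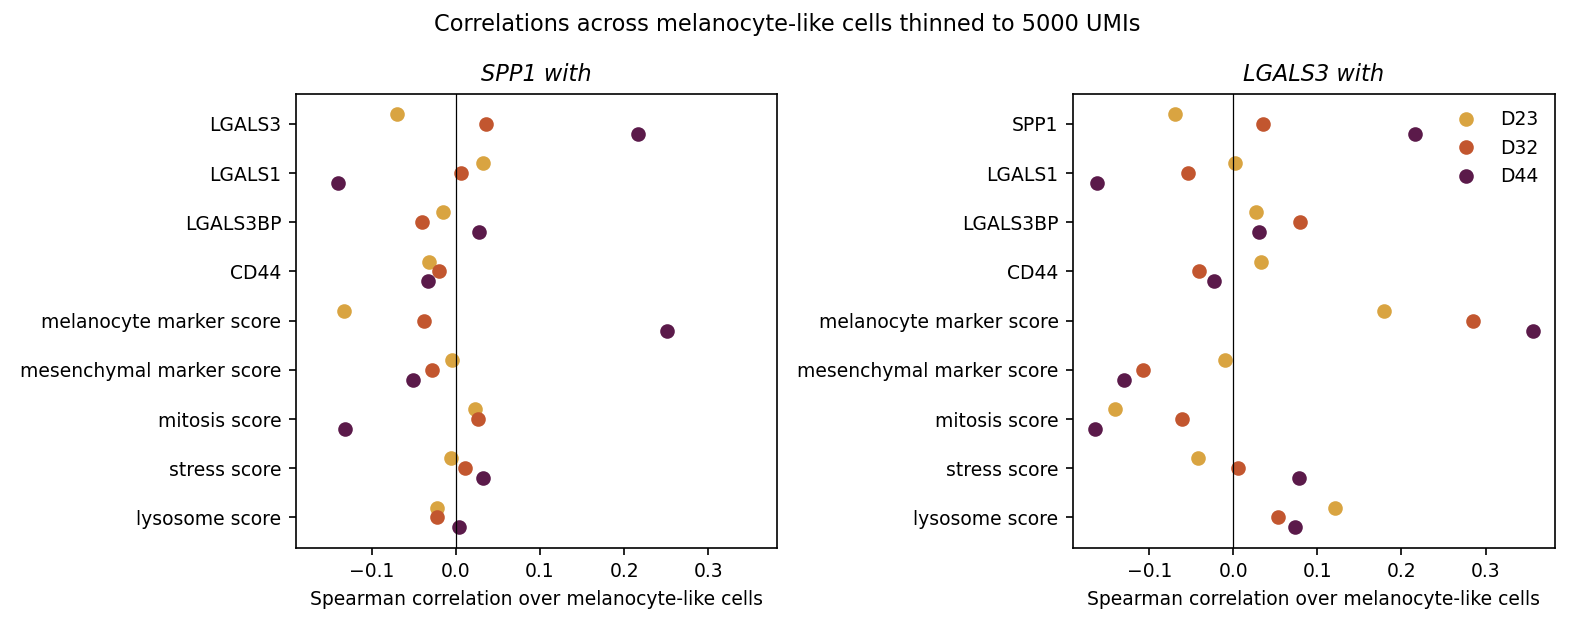
Spearman correlation over melanocyte-like cells thinned to 5000 UMIs, for SPP1 and LGALS3 with the other genes and with scores of marker lists, with 1 point per library. The SPP1 points with the melanocyte marker score lie at -0.13 in D23, -0.04 in D32 and 0.25 in D44, and those of LGALS3 at 0.18, 0.28 and 0.36.

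SPP1 was unevenly spread over cells. On thinned counts its variance over its mean was 1.43 in D23, 1.57 in D32 and 2.38 in D44, where equal cells would give 1. A ratio above 1 was not particular to SPP1. It was 3.38, 5.79 and 5.32 for LGALS3 and 2.81, 2.58 and 3.08 for LGALS1, and lower than that of SPP1 for LGALS3BP, LGALS8 and CD44. For equally uneven cells this ratio grows with the mean. The mean thinned UMIs per cell were 0.0863, 0.209 and 0.925 for SPP1, against 1.62, 15.7 and 21.1 for LGALS3 and 19.3, 13.9 and 14.0 for LGALS1. The ratios therefore do not rank the genes or the days by unevenness. The 10% of cells with most SPP1 held 100%, 74.6% and 47.3% of its UMIs, in step with the growing share of cells that had any. The 100% of D23 was fixed in advance, since only 6.96% of its cells had a SPP1 UMI.

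The genes whose values over cells were most like those of SPP1, by the mean Pearson correlation over the 3 libraries among 7327 genes, were FTH1 (ferritin heavy chain, 0.091), UGCG (glucosylceramide synthase, 0.090), the melanocyte channel gene TRPM1 (0.086), the melanosome fibril gene PMEL (0.080) and the glycophorin gene GYPC (0.072), all weak. Each of these 5 had its highest value in D44. Over D23, D32 and D44 the values were 0.09, 0.06 and 0.12 for FTH1, 0.02, 0.06 and 0.18 for TRPM1 and 0.02, -0.01 and 0.23 for PMEL. TRPM1 and PMEL are also in the melanocyte marker score. For LGALS3 the most similar genes were PMEL (0.229), the melanin enzyme gene DCT (0.221), GSTO1 (0.203), the melanosome transport gene RAB38 (0.202) and MLANA (0.202), which follow the melanocyte marker score in part by construction, since PMEL, DCT and MLANA are in it.

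Osteopontin binds integrins and is phosphorylated and cut by other proteins, and most genes of that list with a called difference were lower in melanocyte-like cells. Of 11 tested, 0 were higher and 7 lower than in mesenchymal-like cells, with a median log2 fold change of -1.07 against 0.08 over all genes, where 9.74% of all genes were called higher and 10.8% lower. Against neural-like cells 1 was higher and 3 lower, beside 10.1% and 12.9% of all genes. The median log2 fold change of the list was 0.19 there, against 0.09 over all genes, so the list as a whole was not lower than in neural-like cells. The urokinase gene PLAU had 0.144, 0.607 and 0.160 CPM in melanocyte-like against 30.3, 84.3 and 265 CPM in mesenchymal-like cells of D23, D32 and D44 (log2 fold change -8.33 ± 0.72, edgeR adjusted p = 0.000304). FAM20C, the kinase that phosphorylates osteopontin in the secretory pathway, had 5.11, 2.04 and 4.55 CPM against 6.56, 10.6 and 101 CPM (-2.31 ± 0.67, edgeR adjusted p = 0.0454). ITGA8, an integrin alpha subunit, was under 0.1 CPM in melanocyte-like cells of each library, against 1.18 to 19.9 CPM in mesenchymal-like cells, and its log2 fold change of -7.18 passed (edgeR adjusted p = 0.00401). The matrix protease gene MMP9 was also lower in melanocyte-like than in neural-like cells, at -6.93 ± 0.71 (edgeR adjusted p = 0.000554).

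Within melanocyte-like cells most genes of this list that were called were lower where pigment gene expression was high. Of 9 genes of the osteopontin list tested, 1 was higher and 6 lower in the high tertile, against 11.1% and 13.1% of all genes. ITGA4 had 43.9, 19.8 and 31.0 CPM in the high against 53.7, 28.6 and 52.2 CPM in the low tertile of D23, D32 and D44 (log2 fold change -0.56 ± 0.07, edgeR adjusted p = 0.000177), and ITGA5 and ITGB5 fell by 0.39 and 0.30 on the log2 scale (edgeR adjusted p = 0.00212 and 0.000558). ITGB1, the beta subunit shared by many integrins, had 874, 407 and 449 CPM in melanocyte-like cells of D23, D32 and D44. The 4 other SIBLING genes, IBSP, DMP1, DSPP and MEPE, did not reach the count filter, and of 13 other galectin genes 2 were tested between tertiles and 1 was called. This was LGALSL, which lay under the 10 CPM of the naming rule and was named after its values were seen. It had 6.51, 9.58 and 9.43 CPM in the high against 8.16, 7.07 and 5.38 CPM in the low tertile of D23, D32 and D44 (log2 fold change 0.52 ± 0.14, edgeR adjusted p = 0.0168).

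Of 18 tested genes for galectin ligands and the enzymes that build their glycans, 5 were higher and 3 lower in melanocyte-like than in mesenchymal-like cells, and 3 higher and 1 lower than in neural-like cells. Over all genes 9.74% were higher and 10.8% lower in the first comparison and 10.1% and 12.9% in the second, and nothing particular to this list is read from its counts. MCAM, a cell adhesion glycoprotein of melanoma, had 77.9, 72.5 and 72.0 CPM in melanocyte-like against 23.9, 11.1 and 2.07 CPM in mesenchymal-like cells of D23, D32 and D44 (log2 fold change 2.52 ± 0.42, edgeR adjusted p = 0.00501). ST6GAL1, which caps galactose with sialic acid, was higher by 1.27 ± 0.36 than in mesenchymal-like cells (edgeR adjusted p = 0.0441), and MGAT5, which adds a branch on which galectin-3 ligands are built, was lower at -1.15 ± 0.30 (edgeR adjusted p = 0.0303). CD63, a tetraspanin of late endosomes and melanosomes, had 2045 and 3917 CPM in melanocyte-like against 959 and 2413 CPM in neural-like cells of D23 and D32 (1.02 ± 0.16, edgeR adjusted p = 0.00338). Between tertiles 2 of the 18 were higher and 6 lower in the high one, against 11.1% and 13.1% of all genes, and the branching enzyme MGAT4A had the largest change, at 1.47 ± 0.12 (edgeR adjusted p = 2.322e-05), from 5.39, 10.7 and 8.23 CPM in the high against 1.78, 4.81 and 2.42 CPM in the low tertile.

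Of 9 tested genes for hyaluronan and the partners of CD44, 2 were higher and 1 lower in melanocyte-like than in mesenchymal-like cells, and 2 higher and 2 lower than in neural-like cells. With 9.74% and 10.8% of all genes called in the first comparison and 10.1% and 12.9% in the second, these few calls say nothing particular to the list. ESRP1, a splicing regulator that acts on CD44 among other genes, had 5.94, 25.3 and 32.7 CPM in melanocyte-like cells over the 3 days, against 0, 1.36 and 0 CPM in mesenchymal-like and 0.211 and 0 CPM in neural-like cells of D23 and D32, and passed both tests (edgeR adjusted p = 0.00122 and 0.00192). RDX (radixin, which links CD44 to actin) had 513, 267 and 254 CPM in melanocyte-like against 284, 133 and 99.3 CPM in mesenchymal-like cells (log2 fold change 1.13 ± 0.19, edgeR adjusted p = 0.00497). ANK3 (ankyrin-G) was lower than in neural-like cells, at -3.34 ± 0.38 (edgeR adjusted p = 0.000918).

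HAS2, a hyaluronan synthase gene, had 20.2, 36.5 and 20.2 CPM in the high against 14.8, 10.2 and 3.53 CPM in the low tertile of D23, D32 and D44, a log2 fold change of 1.87 ± 0.23 (edgeR adjusted p = 0.000188). ESRP1 was higher in the high tertile too, at 0.83 ± 0.07 (edgeR adjusted p = 3.928e-05), and the mitosis-linked hyaluronan receptor gene HMMR was lower, at -0.79 ± 0.10 (edgeR adjusted p = 0.000328). The deposited counts are per gene and do not separate the splice forms of CD44.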

How the data were processed

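For each of 3 droplet libraries the authors deposited a matrix of unnormalized UMI counts, made with Cell Ranger 6.1.2 on GRCh38 (hg38 in the submitters' notes). The deposited tables hold barcodes called as cells, 5585 in D23, 8927 in D32 and 8010 in D44, before the study's cell filter. That filter was applied here: between 1000 and 7000 genes with 500 to 50000 UMIs (limits excluded) in D23, between 3000 and 9000 genes with 500 to 100000 UMIs in D32 and D44, and at most 10% mitochondrial UMIs, which kept 3796, 6023 and 5811 cells with 49850363, 241341185 and 266709913 UMIs. Doublets called from Scrublet scores (58, 432 and 395 cells) were kept, except in 1 alternative. The automatic threshold was used in D23. In D32 and D44 it flagged very few cells, and the cells with the highest scores were taken up to an expected share of 7.14% and 6.41%.

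For the gate, the mean log count per 10000 of 10 melanocyte, 11 mesenchymal and 11 neural markers was divided by its 99th percentile, and a class had to lead the next by 0.2. Cells are not replicates, so UMIs were summed per library and class (at least 10 cells) or per library and pigment tertile, and tested with edgeR 4.0.16 (quasi-likelihood, TMM, filterByExpr, library block, Benjamini-Hochberg over all genes, threshold 0.05; limma 3.58.1, R 4.3.3). DESeq2 1.42.0 was an alternative. The class fit had 8 sums and 3 residual degrees of freedom, the tertile fit 9 and 4. Sums of 1 library share its droplet run, which is what pairs them; p-values measure only whether a difference recurs over these 3 libraries. The fits were checked on simulated counts: between classes a log2 fold change of 2 was recovered for 81% of genes against mesenchymal-like and 69% against neural-like cells, and between tertiles a log2 fold change of 1 for 77%. No test was made between days. Clustering used Scanpy 1.11.5 with 3000 variable genes, 50 components, 20 neighbours and a resolution of 0.4.

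The 6 genes and all gene lists were chosen with earlier results of these data known. Named were the 6 genes, the 5 genes most like SPP1 and LGALS3 over cells, and up to 3 called genes of each of 5 related lists per comparison, of at least 10 CPM in either class in 1 or more libraries. The splice forms of CD44 and protein sequences were not analysed here.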

Additional observations from a re-analysis of the deposited data

Results flagged for a closer look

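SPP1 differed between the days in its relation to pigment gene expression. The ratio of the high to the low tertile of melanocyte-like cells was 0.275 (0.210 to 0.357) in D23, 0.805 (0.765 to 0.847) in D32 and 2.64 (2.58 to 2.70) in D44, so that it ran one way in the first 2 libraries and the other way in the last. With 1 library per day this difference was not tested. The tertiles were made with the main gate only, and in D23 256 of 2065 melanocyte-like cells lay near its cut. CD44 showed a smaller difference of this kind, at 1.13 (1.07 to 1.20) in D23, 0.922 (0.905 to 0.939) in D32 and 0.868 (0.852 to 0.884) in D44, which was not tested either.

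Barcodes outside the cell filter, which entered no comparison, also held both transcripts. SPP1 had 50.8, 35.9 and 154 CPM in them in D23, D32 and D44, and LGALS3 had 155, 3461 and 4445 CPM. In the kept cells of the same libraries SPP1 had 39.4, 43.9 and 188 CPM and LGALS3 had 262, 3047 and 4318 CPM.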

How the results depend on the processing

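Melanocyte-like against mesenchymal-like cells gave 3127 called genes, 1774 without the library block, 1999 with clusters in place of the gate, and 1918 (without D32) to 2957 (without D23) with 1 library left out. Against neural-like cells 3496 were called, 5277 with no count filter, 2272 without the block, and 2295 (without D32) to 3394 (without D44) with 1 library left out. Between tertiles 4127 were called, 1 without the block, 1944 on thinned counts, 1886 without D32, and 1844 (without D44) to 4455 (without D23) over the libraries left out. The labels give no replicate numbers, and the library is the pairing in these fits. Class fits without D23 or without D32 have too few sums left for their calls to be read as recurrence over libraries. They are still counted among the settings here.

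The log2 fold change of SPP1 against mesenchymal-like cells was -0.83 and turned to 0.53 without the highest cell of each sum, an alternative chosen after seeing the data. Against neural-like cells it was -0.58 and turned to 0.10 without that cell and to 0.73 without the block. Between tertiles it was 0.35, turned to -0.24 with DESeq2, and ranged from -0.57 (without D44) to 0.63 (without D23). For LGALS8 against mesenchymal-like cells it was -0.093 without D32 and up to 0.19 without D44, and for CD44 between tertiles -0.14 without D23 and 0.017 without D44. SPP1 against mesenchymal-like cells also passed with no count filter, at -0.90 (edgeR adjusted p = 0.0140).

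LGALS3 was called in 12 of 13 settings against mesenchymal-like and 10 of 13 against neural-like cells, CD44 in 12 and 7, LGALS1 in 3 and 9, and LGALS3BP in 0 and 11. Between tertiles LGALS1, LGALS3 and LGALS3BP were called in 8 of 9, the exception being the fit without the block.

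The number of the 6 genes at least 2-fold apart was 1 between D44 and D32 in all settings, and 3 between D32 and D23 save with clusters in place of the gate and with a lead of 0.1, where SPP1 dropped out and 2 were left. The ratio of D44 to D32 in melanocyte-like cells was 4.39 to 4.62 for SPP1 and 1.33 to 1.39 for LGALS3, and that of D32 to D23 was 1.55 to 2.99 and 8.93 to 11.3; the lowest SPP1 value came with clusters in place of the gate, and a lead of 0.1 gave 1.72. The correlation of SPP1 with the melanocyte marker score was -0.13 in D23, -0.087 at 3000 UMIs per cell and -0.18 unthinned, and in D44 it was 0.25, 0.21 at 3000 UMIs and 0.39 unthinned. The 15 mesenchymal-like cells of D44 limit every value of that class on that day.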
